A study of Mus musculus with 6 samples.

Results

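The genes of the Ras, ERK, JNK and p38 kinase cascades were examined in splenic T cells of DUSP4-/- and WT mice. The set was a list of 34 cascade genes, each represented by the probe set that named only that gene and was brightest over the 6 arrays, and 30 of the 34 were measured in this way among 22180 genes in all. Hras, Map2k7 and Rps6ka1 were named by no single-gene probe set of the annotation used. Rasal3 was named only on 2 probe sets together with A530088E08Rik.

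RNA came from T cells that were sorted magnetically from freshly prepared spleens, untreated and uncultured, and hybridised to Mouse Gene 2.0 ST arrays. The stated purity of the sorted cells was 90 to 95%, a range that the study's methods give as CD4+ purity for naive CD4 T cells. The tested animals were 3 DUSP4-/- mice and the others 3 WT mice on the C57Bl/6 background, aged 6 to 8 weeks, with 1 array per mouse sample. The study used the arrays to ask whether mRNA of STAT5 and SOCS genes differed without the phosphatase. The knockout allele was genotyped from tail DNA, so it was not limited to T cells, the labels gave neither litter nor sex, and the study describes the samples as independent pairs, which the replicate numbers 1 to 3 were taken to name.

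In T cells, the antigen receptor switches on Ras through the exchange factors RASGRP1 and SOS, and Ras engages the Raf kinases, which activate the MEK kinases and then ERK. Parallel tiers of MAP3 and MAP2 kinases lead to JNK and p38. GTPase activating proteins and the Sprouty and Spred proteins damp the signal. The nuclear phosphatase DUSP4 is reported to remove phosphates from ERK and JNK in cell lines. The study cites its authors' earlier work, in which ERK activation was unaltered in DUSP4-/- T cells and DUSP4 acted on STAT5. Transcript levels, which are what the arrays measured, do not report the phosphorylation on which these cascades run.

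Levels are RMA log2 values, on which a difference of 1 is a 2-fold change, and differences are DUSP4-/- minus WT. The targeted gene was read first. Dusp4 had log2 levels of 5.10, 6.18 and 6.78 in DUSP4-/- replicates 1, 2 and 3, against 6.33, 7.61 and 8.13 in WT replicates 1, 2 and 3. It was lower within every pair, by 1.23, 1.44 and 1.35 on the log2 scale, although the genotypes overlapped, since WT replicate 1 lay below DUSP4-/- replicate 3. The difference was -1.34 ± 0.52 (SE) with an adjusted p of 1.0 in limma, a linear model whose variance for each probe set is drawn towards a value common to all. Blocking on the replicate number, so that mice were compared within pairs, gave -1.34 ± 0.10 with an adjusted p of 0.18. Where its probes lie relative to the deleted part is not given in the sources used here. Xist, which is transcribed from the inactive X of females, was 10.12 in DUSP4-/- replicate 1 and 10.09 in WT replicate 1, and 3.58 to 3.87 in the other 4 arrays. Sex as read from Xist therefore went with the replicate number and not with the genotype. Cd3e lay between 11.49 and 11.78 on all arrays, and Cd4 between 10.82 and 11.10. The study's legend to the arrays names naive T cells, purified as in its methods. The methods describe removal of CD8+ cells for the sort of CD4 T cells. Cd8a nevertheless lay between 10.32 and 10.79 on every array, so the cells were taken here as T cells, as labelled.

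None of the 30 cascade genes passed the test for a difference between the genotypes. At an adjusted p under 0.05, limma called 0 of 30, as it called 0% of all 22180 genes, and blocked on the pairs it again called 0 of 30 and 0% of all genes. At an unadjusted p under 0.05, 1 of 30 was below the threshold without a block, against 2.7% of all genes, and 1 of 30 with the block, against 6.19%. A gene-by-gene ANOVA put 1 of 30 below the same unadjusted threshold, against 3.55% of all genes. The single gene in each count was Map3k13.

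Differences of the cascade genes were small in both directions, about as small as those of other genes. The median absolute difference was 0.095 over the cascade genes and 0.092 over all genes. Over genes brighter than the median probe set it was 0.072. Of the 30 genes, 18 had a positive and 12 a negative log2 difference, with a median of 0.04, and over all genes 55.9% were positive and the median was 0.02. Within pairs 1, 2 and 3 the median over the cascade genes was 0.01, 0.10 and 0.01, against 0.01, 0.01 and 0.04 over all genes. For 29 of the 30 genes the 95% interval of the blocked fit lay inside a 1.5-fold change in either direction, and for 24 of 30 it did so without the block. The exception with the block was Map3k13. The same shares over all genes are not given, so these counts do not set the cascade genes apart. Standard errors on the log2 scale ran from 0.11 to 0.26 without the block and from 0.09 to 0.17 with it. An exact permutation test of 3 arrays against 3 could not give a p below 0.1, so no single gene could pass it.

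**Figure D1:**
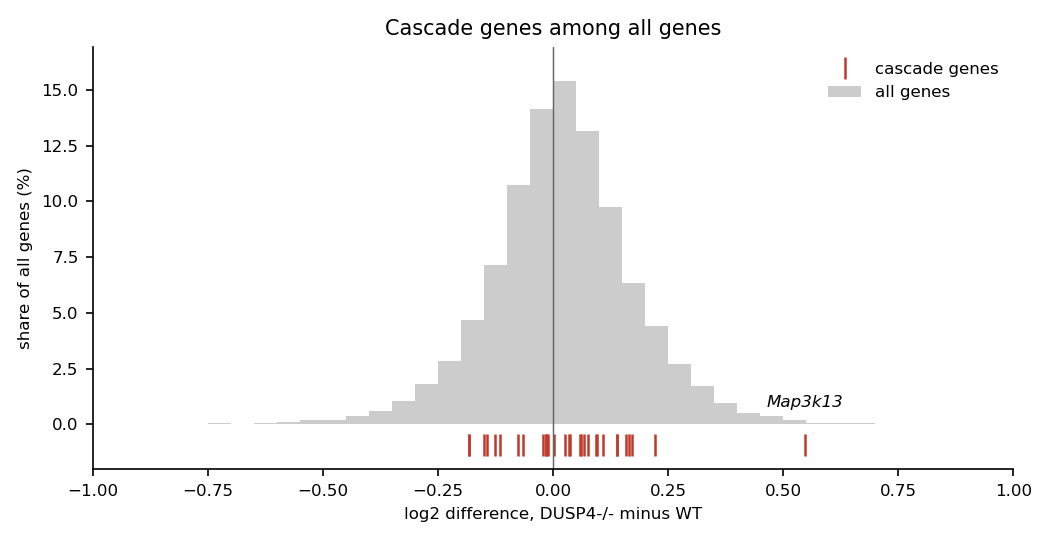
Share of all 22180 genes (grey bars, %) by log2 difference, DUSP4-/- minus WT, with the 30 cascade genes as red ticks below the bars. 17 genes lie outside the plotted range. The cascade genes lie between -0.18 and 0.22 apart from Map3k13 at 0.55.

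Of the 30 genes, 1 had DUSP4-/- arrays that all lay above the WT arrays, against 5.02% of all genes, and 0 of 30 had DUSP4-/- arrays that all lay below, against 2.43%. Counted by pairs, 7 of 30 genes were higher in each of the 3 DUSP4-/- mice than in its WT partner, against 16.6% of all genes, and 4 of 30 were lower in each, against 11.1%. The 7 genes that were higher in each pair were Map3k13, Rasgrp1, Rasa1, Rasa2, Rps6ka3, Map2k6 and Elk4. The 4 that were lower in each pair were Araf, Map2k4, Nf1 and Spry2. Neither share was tested against the rest of the genes.

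**Figure D2:**
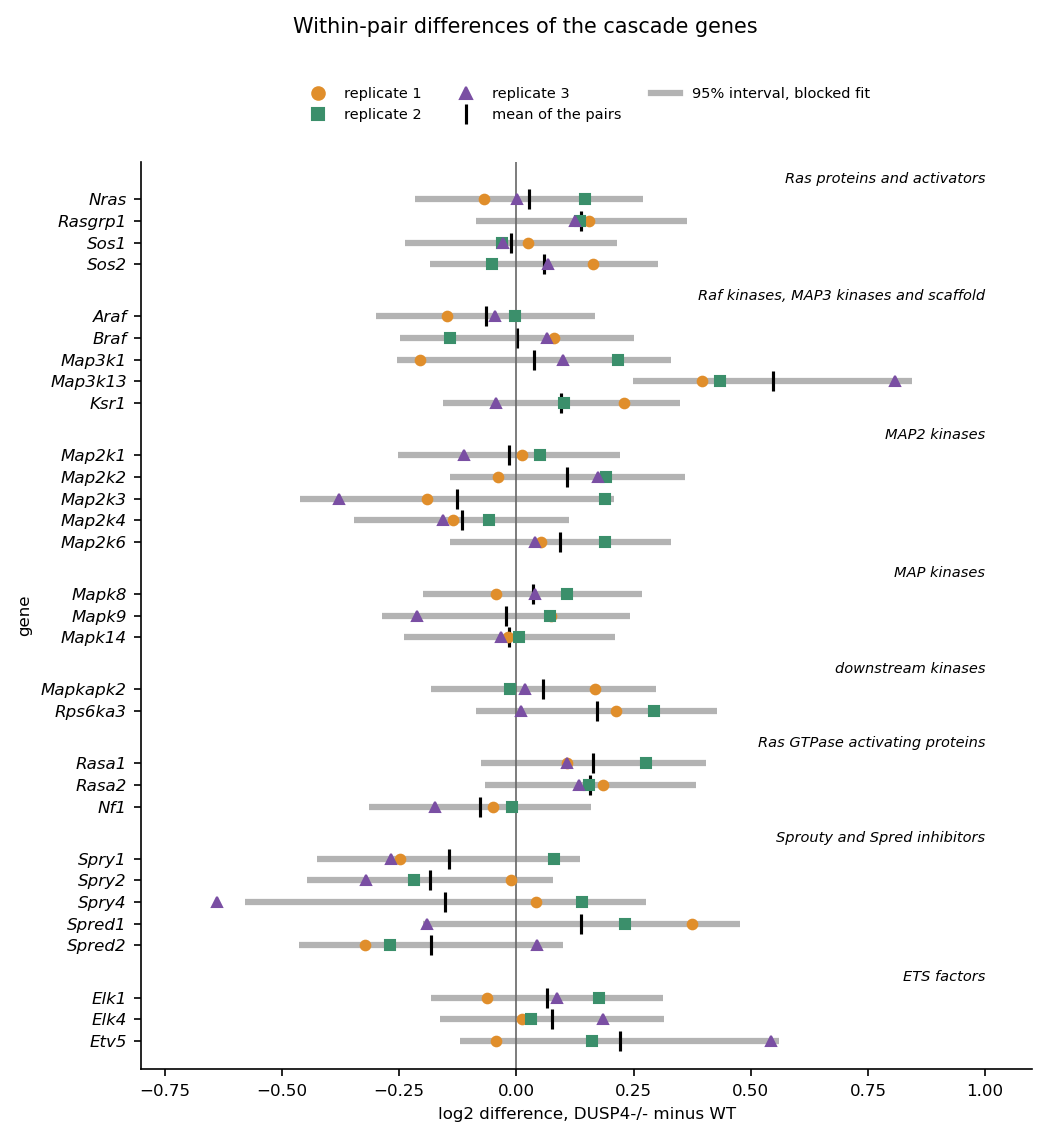
Log2 difference, DUSP4-/- minus WT, of each of the 30 cascade genes within each pair of the same replicate number, grouped by role. Symbols are the 3 pairs, black ticks their mean, and grey bars the 95% interval of the fit with blocking on the replicate number. Only the bar of Map3k13 (0.25 to 0.84) excludes 0.

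Among the Ras proteins and their activators, 4 of 5 were measured, and their median difference was 0.04. Rasgrp1, the exchange factor that couples diacylglycerol to Ras in T cells, had log2 levels of 10.36, 10.17 and 9.97 in DUSP4-/- replicates 1, 2 and 3, against 10.20, 10.03 and 9.84 in WT replicates 1, 2 and 3. The genotypes overlapped, but the within-pair differences of 0.15, 0.14 and 0.12 were nearly alike, with an SD over pairs of 0.02. Its difference was 0.14 ± 0.09 (SE) in the blocked fit, with an adjusted p of 0.84 in limma. The replicate number moved Rasgrp1 more than the genotype did, since both replicate 1 arrays were the highest of their genotype and both replicate 3 arrays the lowest. Nras, a Ras GTPase, and the exchange factors Sos1 and Sos2 had fold changes of 1.02, 0.99 and 1.04, each with differences of both signs among the pairs. Outside the list, Rasgrp3 and Rasgrp4 were lower in each pair, and Rasgrp2 had pairs of both signs.

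The promoter of Rasgrp1 is printed because this gene was the most uniform across pairs of the 7 that were higher in each of them. The windows printed here run from 250 bases before to 50 bases after an annotated start and come from RefSeq on GRCm38.p6, 5′ to 3′ on the gene's strand, with motif matches in capitals. The capitals in Rasgrp1, on the minus strand of chr2:117342828-117343127, mark the GAS motif TTCNNNGAA, the kind of site that STAT proteins bind.
Rasgrp1, GRCm38.p6 promoter window: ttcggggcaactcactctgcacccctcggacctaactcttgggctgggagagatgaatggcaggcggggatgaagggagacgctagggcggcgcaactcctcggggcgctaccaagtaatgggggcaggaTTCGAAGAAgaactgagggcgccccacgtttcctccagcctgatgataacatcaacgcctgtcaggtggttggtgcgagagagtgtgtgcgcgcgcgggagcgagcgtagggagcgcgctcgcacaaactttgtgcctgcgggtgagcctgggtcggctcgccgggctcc
At least 1 GAS match on either strand was found in 8.3% of all 32851 promoter windows and in 3 of the 37 windows of 28 cascade genes, those of Map2k4, Mapk14 and Rasgrp1.

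The Raf kinases, the MAP3 kinases and the scaffold KSR1 held the only gene without overlap. Map3k13, also called LZK, is a MAP3 kinase that feeds JNK, and its log2 levels were 5.12, 5.43 and 5.44 in DUSP4-/- replicates 1, 2 and 3, against 4.72, 4.997 and 4.63 in WT replicates 1, 2 and 3. Every DUSP4-/- array lay above every WT array, with 0.12 between the nearest 2, and the within-pair differences were 0.40, 0.43 and 0.81. The difference was 0.55 ± 0.15 (SE), a 1.46-fold change, with a p of 0.0074 and an adjusted p of 1.0 in limma. With the block it was 0.55 ± 0.12 with a p of 0.0045 and an adjusted p of 0.76, and the exact permutation p was 0.1, the smallest that 3 against 3 arrays allow. A second, dimmer probe set of Map3k13 did not separate the genotypes. It read 2.80, 3.05 and 3.42 in DUSP4-/- replicates 1, 2 and 3, against 2.86, 2.83 and 2.76 in WT replicates 1, 2 and 3, and its within-pair differences were -0.06, 0.22 and 0.67. The brighter probe set, with a mean of 5.06 over the arrays, was itself only just above 5.03, the median over all probe sets, and no detection calls were used here. Pair 3 gave the largest difference on both probe sets.

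The promoter window of Map3k13 is printed because it was the one cascade gene whose genotypes did not overlap. It lies on the plus strand of chr16:21891719-21892018 and is all in lower case, since none of the 4 motifs searched was found in it. These were the GAS motif, the ETS motif CCGGAAG, the CRE half-site TGACGT and the AP-1 motif TGANTCA, each on both strands.
Map3k13, GRCm38.p6 promoter window: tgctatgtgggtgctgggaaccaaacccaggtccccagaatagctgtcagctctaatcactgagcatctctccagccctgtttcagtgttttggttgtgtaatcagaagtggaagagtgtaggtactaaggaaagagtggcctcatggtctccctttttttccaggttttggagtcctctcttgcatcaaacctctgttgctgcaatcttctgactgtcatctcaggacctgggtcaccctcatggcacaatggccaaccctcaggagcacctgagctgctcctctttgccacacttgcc
The ETS motif was present in 8.86% of all windows and in 3 of the 37 cascade windows (Elk4, Nf1 and Rasa1), and the AP-1 motif in 7.81% and in 2 of 37 (Ksr1 and Map2k6).

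The other genes of this tier differed little between the genotypes. Map3k1, which activates the JNK branch, read 8.80, 8.63 and 8.41 in DUSP4-/- replicates 1, 2 and 3, against 9.01, 8.42 and 8.31 in WT replicates 1, 2 and 3. Its difference of 0.04 ± 0.21 (SE) had pairs of both signs, of -0.21, 0.22 and 0.10. Ksr1, a scaffold that holds Raf and MEK together, read 6.95, 6.51 and 6.37 in DUSP4-/- replicates 1, 2 and 3, against 6.72, 6.41 and 6.41 in WT replicates 1, 2 and 3. Its pairs were likewise of both signs, and its difference was 0.10 ± 0.18 (SE). Araf was lower in each pair, by 0.15, 0.0037 and 0.05 on the log2 scale, with a fold change of 0.96 and a blocked 95% interval of 0.81 to 1.12. Braf, the Raf kinase with the strongest activity towards MEK, had a fold change of 1.00 and an interval of 0.84 to 1.19.

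The MAP2 kinases, of which 5 of 6 were measured, had a median difference of -0.02, which changed sign without DUSP4-/- replicate 3 (0.03) or WT replicate 3 (0.0028). Map2k1 and Map2k2, which encode the ERK-activating MEK kinases, had fold changes of 0.99 and 1.08, with blocked 95% intervals of 0.84 to 1.17 and 0.91 to 1.28. Map2k4, whose product activates JNK, read 8.12, 8.06 and 7.90 in DUSP4-/- replicates 1, 2 and 3, against 8.26, 8.12 and 8.05 in WT replicates 1, 2 and 3. It was lower in each pair, by 0.13, 0.06 and 0.16 on the log2 scale, but the genotypes overlapped and the blocked fit gave -0.12 ± 0.09 (SE) with an adjusted p of 0.87 in limma. The p38-activating kinases Map2k3 and Map2k6 lay on opposite sides of 0. Map2k6 was higher in each pair, by 0.05, 0.19 and 0.04. Map2k3 had pair differences of -0.19, 0.19 and -0.38, so that its sign changed between pairs.

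The MAP kinases themselves differed least of the 8 roles in median absolute difference, at 0.02. Mapk14, which encodes p38 alpha, ranged over only 0.07 on all 6 arrays, with 7.71, 7.74 and 7.68 in DUSP4-/- replicates 1, 2 and 3, against 7.73, 7.74 and 7.71 in WT replicates 1, 2 and 3. Its fold change was 0.99, with a blocked 95% interval of 0.85 to 1.16. Mapk9, which encodes JNK2, had a fold change of 0.98 and an interval of 0.82 to 1.18. Mapk8, which encodes JNK1, read 7.61, 8.40 and 8.38 in DUSP4-/- replicates 1, 2 and 3, against 7.65, 8.29 and 8.34 in WT replicates 1, 2 and 3. Its genotypes differed by 0.04 ± 0.09 (SE) in the blocked fit, whereas both replicate 1 arrays lay below the other 4, by 0.78 in DUSP4-/- and by 0.66 in WT mice.

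Downstream of the MAP kinases, 2 of 3 kinases were measured. Rps6ka3, which encodes the ERK-activated kinase RSK2, read 9.52, 9.43 and 9.02 in DUSP4-/- replicates 1, 2 and 3, against 9.30, 9.14 and 9.02 in WT replicates 1, 2 and 3. It was higher by 0.21 and 0.29 in pairs 1 and 2 and by 0.01 in pair 3, and its difference of 0.17 ± 0.10 (SE) in the blocked fit had an adjusted p of 0.82 in limma. Mapkapk2, the p38-activated kinase MK2, read 7.89, 7.97 and 8.33 in DUSP4-/- replicates 1, 2 and 3, against 7.72, 7.99 and 8.31 in WT replicates 1, 2 and 3. Only pair 1 of Mapkapk2 differed by more than 0.02, at 0.17.

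Ras GTPase activating proteins return Ras to its inactive state, and 3 of 4 listed were measured. Each of the 3 kept 1 sign across the pairs, as 27.6% of all genes did, but Rasa3, Rasa4, Rasal1, Rasal2 and Dab2ip, GTPase activating proteins outside the list, had pairs of both signs. Rasa1, which encodes p120 RasGAP, read 9.17, 9.43 and 9.14 in DUSP4-/- replicates 1, 2 and 3, against 9.07, 9.15 and 9.03 in WT replicates 1, 2 and 3. Its pair differences were 0.11, 0.28 and 0.11, and the overlap of the genotypes came from WT replicate 2 lying above DUSP4-/- replicate 3 by 0.01. Rasa2 read 8.69, 8.23 and 8.45 in DUSP4-/- replicates 1, 2 and 3, against 8.51, 8.07 and 8.32 in WT replicates 1, 2 and 3. Its pair differences of 0.18, 0.15 and 0.13 had an SD of 0.03, smaller than the spread over mice of either genotype (SD 0.23 in DUSP4-/- and 0.22 in WT). The blocked fit gave 0.16 ± 0.10 (SE) for Rasa1 and 0.16 ± 0.09 (SE) for Rasa2, each with an adjusted p of 0.82 in limma. Nf1, which encodes neurofibromin, was lower by 0.05, 0.01 and 0.17 on the log2 scale. The 2 probe sets shared by Rasal3 and A530088E08Rik, which cannot be assigned to either gene, moved in opposite directions, by 0.32, 0.09 and 0.08 on the dimmer one and by -0.18, -0.10 and -0.01 on the brighter one in pairs 1, 2 and 3.

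**Figure D3:**
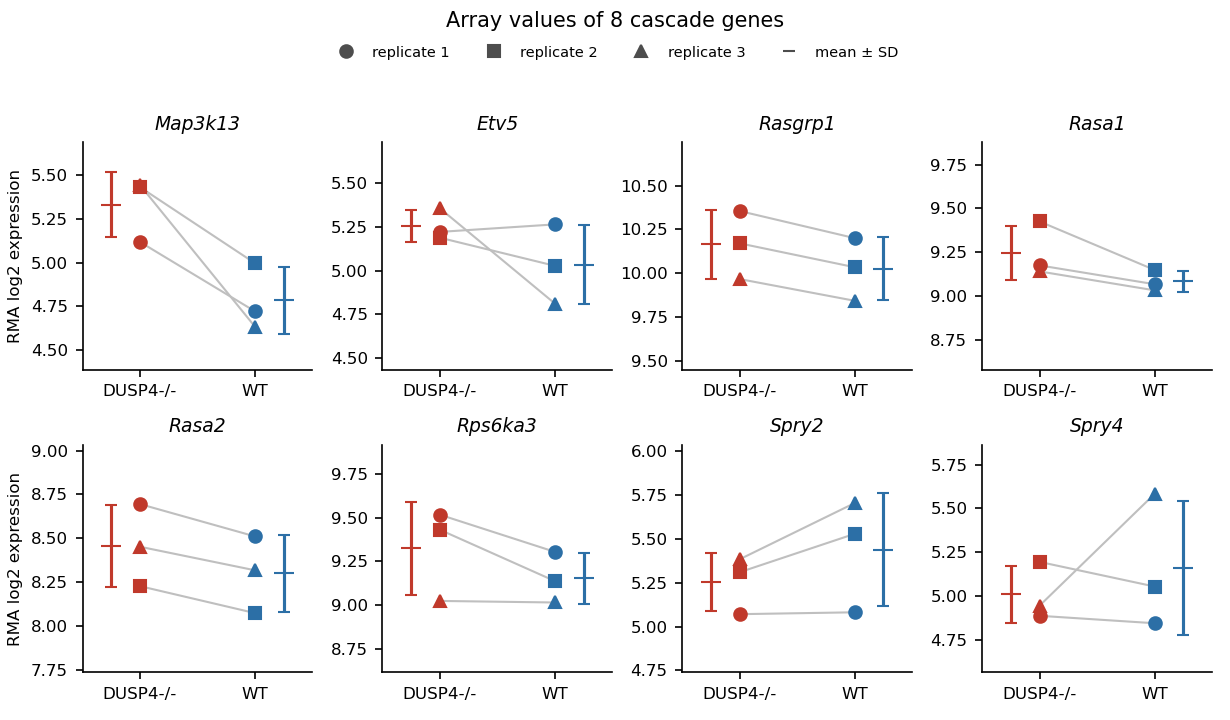
RMA log2 expression of 8 cascade genes in DUSP4-/- and WT T cells. Symbols are single arrays, grey lines join arrays of the same replicate number, and bars are the mean ± SD of 3 arrays. The genotypes overlap for every gene shown except Map3k13, and the lines of Rasgrp1 and Rasa2 run parallel.

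The Sprouty and Spred inhibitors, which are induced by and act against receptor signals to ERK, had a median of -0.15, but the pairs disagreed and single arrays moved it widely, to -0.05 without WT replicate 3 and to -0.29 without WT replicate 1. Their median was -0.01, 0.08 and -0.27 in pairs 1, 2 and 3. Spry2 read 5.07, 5.31 and 5.38 in DUSP4-/- replicates 1, 2 and 3, against 5.08, 5.53 and 5.71 in WT replicates 1, 2 and 3, and was the only one of the 5 to be lower in each pair. Spry1 read 6.02, 6.41 and 5.80 in DUSP4-/- replicates 1, 2 and 3, against 6.27, 6.33 and 6.06 in WT replicates 1, 2 and 3. Spry4 read 4.89, 5.19 and 4.94 in DUSP4-/- replicates 1, 2 and 3, against 4.84, 5.05 and 5.58 in WT replicates 1, 2 and 3. The lower mean of Spry4 in DUSP4-/- mice came from WT replicate 3 alone, and without that array its difference was 0.06.

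The Spred genes did not move together. Spred1 read 6.59, 6.88 and 6.77 in DUSP4-/- replicates 1, 2 and 3, against 6.21, 6.65 and 6.96 in WT replicates 1, 2 and 3. Spred2 read 7.40, 7.85 and 7.99 in DUSP4-/- replicates 1, 2 and 3, against 7.72, 8.12 and 7.95 in WT replicates 1, 2 and 3. Spred1 was higher in pairs 1 and 2 and lower in pair 3, and Spred2 was the reverse. In the blocked fit the 5 inhibitors had adjusted p values of 0.82 to 0.91 in limma.

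Myeloid cell markers differed most in pair 3, the pair in which Spry4 and Map2k3 were lowest in DUSP4-/- relative to WT. All 18 of 18 myeloid markers were measured, with medians of 6.10, 6.13 and 5.61 in DUSP4-/- replicates 1, 2 and 3, against 5.88, 6.13 and 6.35 in WT replicates 1, 2 and 3. Their summed linear signal ran from 2379 to 2841 in DUSP4-/- and from 2574 to 3200 in WT arrays, and none was listed at 0. Within pair 3 the myeloid median difference was -0.48, beside -0.64 for Spry4 and -0.38 for Map2k3. Other cascade genes went the other way in that pair, as Map3k13 and Etv5 did, at 0.81 and 0.54. Of 11 erythroid markers 4 were measured, 3 of them below the median probe set, and their median difference in pair 3 was -0.65. The part of myeloid or erythroid cells in the cascade genes' values was not tested. In bulk RNA, fewer cells of a type and less RNA per cell cannot be told apart.

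The ETS factors among the cascade genes, which MAP kinases act on or induce, were 3, and each had a positive difference, as 55.9% of all genes did. The other ETS genes measured went both ways. Etv4, Ets2 and Etv6 had negative differences, of -0.11, -0.10 and -0.24. Etv1, Elk3 and Ets1 had positive ones, of 0.25, 0.13 and 0.05. Elk1 and Elk4, serum response partners that MAP kinases phosphorylate, had fold changes of 1.05 each, with blocked 95% intervals of 0.88 to 1.24 for Elk1 and 0.89 to 1.24 for Elk4. Etv5, whose transcription ERK signals raise in many tissues, read 5.22, 5.19 and 5.36 in DUSP4-/- replicates 1, 2 and 3, against 5.26, 5.03 and 4.81 in WT replicates 1, 2 and 3. Its pair differences were -0.04, 0.16 and 0.54. On a second, slightly dimmer probe set Etv5 read 5.27, 5.13 and 5.26 in DUSP4-/- replicates 1, 2 and 3, against 4.93, 5.11 and 5.05 in WT replicates 1, 2 and 3, which did not overlap. The fit gave 0.22 ± 0.15 (SE) on the brighter and 0.19 ± 0.12 (SE) on the dimmer probe set, with an adjusted p of 1.0 for each in limma.

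The cascade genes were next compared between replicate numbers. For 21 of 30 genes the mean of the replicate 1 arrays stood farther from that of the other 4 than the genotype means stood apart, a share of 70.0%, against 65.9% of all genes. Both replicate 1 arrays lay below the other 4 for 8 of 30 genes, against 16.1% of all genes, and above them for 9 of 30, against 17.7%. Among genes brighter than the median probe set, as all 30 were, these shares were 20.6% and 28.5%. The genes below were Braf, Map2k3, Mapk8, Mapkapk2, Spry2, Spry4, Spred1 and Spred2, and those above were Nras, Araf, Map2k2, Map2k4, Map3k1, Ksr1, Rasgrp1, Rasa2 and Nf1.

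**Figure D4:**
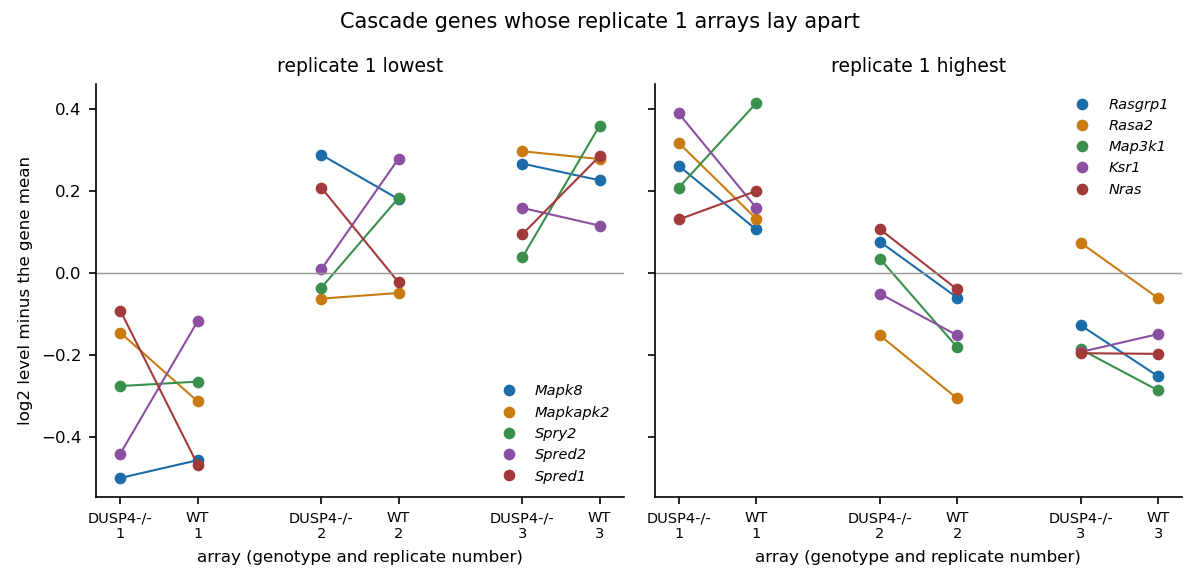
Log2 level of 10 cascade genes on each array minus the gene's mean over the 6 arrays, with arrays arranged by replicate number, DUSP4-/- beside WT. Both replicate 1 arrays are the lowest for the 5 genes on the left, as for Mapk8, and the highest for the 5 genes on the right, as for Rasgrp1. Lines join the genotypes of 1 replicate number.

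A moderated F test of the replicate number, in the fit with the genotype, called 0 of 30 cascade genes at an adjusted p under 0.05, against 2.45% of all genes. At an adjusted p under 0.1 it called 1 of 30, against 8.26%, and at an unadjusted p under 0.05 it had 8 of 30, against 22.4%. Among genes brighter than the median probe set, as all 30 were, the share at an unadjusted p under 0.05 was 31.6%. Mapk8 had the lowest p of the cascade genes, 0.0015, with an adjusted p of 0.052 in limma. The count depended on how limma estimated the spread. With an intensity trend and robust settings 10 of 30 passed, against 17.7% of all genes, bright and dim together. Without probe sets below the median level 6 of 30 passed, against 26.0% of the genes kept.

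Under the intensity trend the 10 genes were Mapk8, Rasgrp1, Mapkapk2, Map3k1, Rasa2, Rps6ka3, Spred2, Nras, Braf and Ksr1. Mapk8 had an adjusted p of 8.3e-05 there and Rasgrp1 of 0.0026 in limma. Without the dim probe sets the 6 genes were Mapk8, Mapkapk2, Rasa2, Ksr1, Map3k1 and Spry2. Which feature of the mice or their handling the number stands for cannot be told apart. Xist, the immediate early genes, the B cell markers, Dusp4 and some T cell markers moved with it as well. Of 32 immediate early genes, which MAP kinase signals induce within minutes, 31 were measured. The same test called 18 of the 31 at an adjusted p under 0.05, against 2.45% of all genes. The median of the 31 was 8.13, 8.95 and 8.98 in DUSP4-/- replicates 1, 2 and 3, against 8.31, 8.96 and 8.89 in WT replicates 1, 2 and 3. The summed linear signal of 12 of 14 measured B cell markers was 1493, 752 and 929 in DUSP4-/- replicates 1, 2 and 3, against 1429, 731 and 1001 in WT replicates 1, 2 and 3. Of 13 measured T cell markers the replicate number test called 2 at an adjusted p under 0.05. These were Cd28, lower in replicate 1 by 0.72 on the log2 scale, and Il7r, higher by 0.76. Dusp4 was called as well, at an adjusted p of 0.015 in limma. The part of any of these in the levels of the cascade genes was not tested.

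The promoter window of Mapk8 is printed because this gene differed most between replicate numbers. RefSeq gave 2 windows for Mapk8, and the one shown is the more upstream, on the minus strand of chr14:33447109-33447408, with the CRE half-site TGACGT in capitals, the core of the element that CREB and ATF proteins bind.
Mapk8, GRCm38.p6 promoter window: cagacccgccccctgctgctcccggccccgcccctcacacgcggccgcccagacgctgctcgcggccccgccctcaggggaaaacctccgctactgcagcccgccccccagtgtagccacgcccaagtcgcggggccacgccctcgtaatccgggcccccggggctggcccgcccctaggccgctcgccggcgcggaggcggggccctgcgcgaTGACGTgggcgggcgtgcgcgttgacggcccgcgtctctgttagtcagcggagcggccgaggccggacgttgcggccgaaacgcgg
The CRE half-site was present in 7.51% of all windows and in 5 of the 37 cascade windows, those of Braf, Ksr1, Map2k1, Mapk8 and Spred2. Of these 5 genes, Braf, Mapk8 and Spred2 were among those below the other arrays in replicate 1, Ksr1 was among those above, and Map2k1 was in neither group.

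Other genes of the same pathways, from a list of 77 of which 70 were measured, did not differ between the genotypes by the test either. limma called 0 of 70 at an adjusted p under 0.05, with 0 of 70 under an unadjusted 0.05 without the block, 3 with the block and 3 in the ANOVA, against 2.7%, 6.19% and 3.55% of all genes. Their differences were balanced, with 34 positive and 36 negative and a median of -0.01. They ran from -0.40 for Rasgrp3 to 0.26 for Mras. Rasgrp3 was lower in each pair, by 0.47, 0.19 and 0.56 on the log2 scale, but its genotypes overlapped. Its blocked fit gave -0.40 ± 0.11 (SE) with an adjusted p of 0.76 in limma. The genotypes did not overlap for 4 of the 70, all lower in DUSP4-/- mice, against 2.43% of all genes lower and 5.02% higher. Ptpn11, which encodes the phosphatase SHP2 upstream of Ras, read 7.30, 7.22 and 7.28 in DUSP4-/- replicates 1, 2 and 3, against 7.48, 7.43 and 7.34 in WT replicates 1, 2 and 3. Mapk8ip1, which encodes the JNK scaffold JIP1, read 4.09, 4.35 and 4.30 in DUSP4-/- replicates 1, 2 and 3, against 4.50, 4.49 and 4.62 in WT replicates 1, 2 and 3. The other two were Map3k4, at -0.06 ± 0.11 (SE), and Rasgrf1, at -0.13 ± 0.11 (SE), and each of the 4 had an adjusted p of 1.0 in limma. The test of the replicate number called 2 of the 70 at an adjusted p under 0.05, against 2.45% of all genes. These were Ets2, an ETS factor, and Mapk6, which encodes ERK3. Both were lower in replicate 1, by 1.44 and 0.83 on the log2 scale relative to the other 4 arrays.

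Plasma cell markers were read because such cells can remain after a sort, and none passed the test with or without the block. Of 8 measured plasma cell markers 7 had a negative and 1 a positive difference, against 55.9% of all genes positive, and their median was -0.26. At an unadjusted p under 0.05 limma had 1 of 8 without the block and 3 of 8 with it, against 2.7% and 6.19% of all genes. The summed linear signal of the 8 markers ran from 1282 to 2063 in DUSP4-/- and from 1753 to 2657 in WT arrays. None was listed at 0. Jchain, which encodes the joining chain of secreted antibody, was lower in each pair, by 0.85, 0.73 and 0.61 on the log2 scale. It was called at an adjusted p of 0.00011 in limma with the block, an intensity trend and robust settings, a fit added after the data were seen, which called 0 of 30 cascade genes and 0.0947% of all genes. For T cell markers the median difference was 0.02 over 13 of 16 measured genes. The part of plasma cells in the cascade genes' values was not tested.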

How the data were processed

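The deposited log2 values were computed by the authors with RMA in Affymetrix Expression Console (versions not given), which corrects background, quantile-normalises arrays and summarises probes; array medians ran from 4.99 to 5.07. Of 41345 probe sets, 23521 named 1 gene in the platform annotation and were tested; 1820 naming several and 16004 naming none were left out. For 1082 genes with more than 1, the brightest represented the gene. DUSP4-/- minus WT was fitted with lmFit and eBayes (limma 3.58.1, R 4.3.3) over all 23521, without a block, p adjusted by Benjamini-Hochberg, threshold 0.05. The procedure was tested on simulated data, where only differences larger than that of any cascade gene had to be recovered in sign and size. Exact permutation tests used SciPy 1.17.1. With 3 arrays per genotype, their number limits the precision; p-values measure the spread between these samples only. Same-numbered samples deviated together from their genotype means (correlations over genes 0.31 to 0.58, against -0.44 to 0.10 for other numbers), so the number was also used as a block. Members and lists were chosen with earlier results of these data known. All array values are given for members without overlap between genotypes, the 10 with the largest difference and the 6 with the smallest replicate-number p; a few others were added after their values were seen. All 30 measured members matched RefSeq (GRCm38.p6) by gene identifier, 28 with promoter windows. Alternatives were leaving out arrays or pairs, dropping dim probe sets, intensity trend with robust settings, array weights, renewed quantile normalisation, median centring, means over probe sets, ANOVA and a threshold of 0.1.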

Additional observations from a re-analysis of the deposited data

How the results depend on the processing

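No cascade gene was called under any alternative run. Over all genes the count was 0 except without WT replicate 1, where it was 1 (Gdpd3; 0 to 1 over single arrays left out), and in 2 fits chosen after seeing the data, 21 with the replicate block, intensity trend and robust settings (Dusp4, the plasma cell marker Jchain and immunoglobulin genes among them) and 1 with the block and no dim probe sets (Dusp4). The blocked fit changed no other call. Cascade genes without overlap were 2 rather than 1 after renewed quantile normalisation (Elk1 added, by 0.01) and with means over probe sets (Etv5 added). Those differing by replicate number were 6 without dim probe sets, 10 with the trend and 1 at a threshold of 0.1, rather than 0.

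Leaving out single arrays moved the median of the Ras proteins and activators between 0.00556 and 0.0808, of the Raf and MAP3 kinases between -0.0578 and 0.199, of the GTPase activating proteins between 0.0389 and 0.161, of the Sprouty and Spred inhibitors between -0.288 and -0.0503, of the MAP2 kinases between -0.0531 and 0.0302 and of the MAP kinases between -0.0453 and 0.0272. The Raf and MAP3 median was 0.101 with array weights, 0.0730 without pair 2 and 0.00518 without pair 3, the GTPase activating median was 0.108 without pair 2, and the Sprouty and Spred median was -0.0440 with array weights. The MAP2 and MAP kinase medians were also positive with array weights (0.0179 and 0.0160), after renewed quantile normalisation (0.00398 and 0.00828) and without pair 3 (0.0322 and 0.0325). Single genes were run for 21 of the 30 measured, 14 by rule and 7 (Rasgrp1, Map2k4, Map2k6, Araf, Nf1, Elk4 and Mapk14) added after the data were seen, and 12 of the 21 kept their sign under every alternative. The sign turned, over single arrays left out, for Mapk8 (-0.185 to 0.294), Mapkapk2 (-0.0850 to 0.210), Map3k1 (-0.0974 to 0.252), Ksr1 (-0.0743 to 0.216), Spry4 (-0.310 to 0.0595), Spred1 (-0.0608 to 0.315), Map2k6 (-0.0270 to 0.186), Araf (-0.136 to 0.0158) and Mapk14 (-0.0312 to 0.00151), and also after renewed quantile normalisation for Mapk14 (0.00116), without pair 2 for Mapk8 (-0.00132) and Map3k1 (-0.0527) and without pair 3 for Spry4 (0.0915). The cause was not tested.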
